A study of Homo sapiens with 8 samples.

Results

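Ribosome footprints were compared with mRNA, gene by gene, in cells given wild-type DNMT3A, a de novo DNA methyltransferase, by transduction. The comparison used the 4 wild-type libraries of the 8 in the series, 2 of footprints and 2 of mRNA, and asked how many footprints each gene had for its mRNA. Genes were taken where the mean count was at least 100 in both groups, which left 4012 of the 20453 genes listed. The label for the cells is THP-1, the name of a human monocytic leukaemia line. All 4 libraries came from cells with the same transduced gene, and the labels name neither the vector nor whether the cells were a clone. Whether the replicates were separate cultures is not stated, so a p-value here reflects library-to-library spread that could be technical.

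In ribosome profiling, nuclease digests the mRNA that ribosomes do not cover, and the protected fragments (footprints) are sequenced. The number of footprints on a gene depends on the amount of its mRNA and on how densely ribosomes sit on it, so the ratio of footprints to mRNA is commonly read as ribosome density or translational efficiency. Known regulated classes include mRNAs that start with a terminal oligopyrimidine (TOP) tract, which encode ribosomal proteins and elongation factors and respond to mTORC1. Others are mRNAs with inhibitory upstream open reading frames such as ATF4, and ferritin mRNAs, which iron regulatory proteins hold back when iron is low.

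Values are counts scaled to the library's total (CPM), and the ratio is footprint CPM over mRNA CPM on a log2 scale, so that 0 means equal shares of both kinds of library and not 1 ribosome per mRNA. A gene was placed at the high end where edgeR's quasi-likelihood test gave a Benjamini-Hochberg adjusted p under 0.05 and the ratio was at least 2-fold (log2 of at least 1), and at the low end where it was at most -1. Total counts were between 3415999 and 4523475 in the mRNA libraries and between 1611724 and 1988513 in the footprint libraries. A floor of 3 counts stood for 0.663 to 0.878 CPM of mRNA and 1.51 to 1.86 CPM of footprints, which covers counting error only. The cell label was checked against markers. Of 30 monocyte and macrophage markers 5 reached 10 CPM in mRNA and 14 had no count in any of the 4 libraries, among them CSF1R, CD163, FCN1, S100A8 and IRF8, with a summed level of 381 to 391 CPM in mRNA. Of 20 erythroid and megakaryocyte markers 18 reached 10 CPM, with a summed level of 3624 to 3683 CPM in mRNA and 4528 to 4694 CPM in footprints. Of 8 epithelial markers 4 reached 10 CPM, and of 12 lymphoid markers 1 did. The markers therefore went against the label, and the cells are referred to here by their label alone.

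DNMT3A itself (ENSG00000119772, GRCh38 chromosome 2, 25227874 to 25342590) stood at 288 and 290 CPM in mRNA and at 135 and 150 CPM in footprints. Both footprint values lay below both mRNA values, with a log2 ratio of -1.02 (SE 0.0684, edgeR adjusted p = 1.1e-20). These counts cannot tell the transduced copy from the endogenous gene.

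Over the 4012 genes the log2 ratio had a median of 0.27 and a standard deviation of 0.78. The central range from the lower to the upper quartile ran from -0.23 to 0.71, and the range that leaves out the lowest and highest 5% of genes ran from -1.08 to 1.32. Across genes, footprint and mRNA levels on the log2 scale had a Pearson correlation of 0.778 and a Spearman correlation of 0.727, given as a description because genes are not independent replicates and share the same 4 libraries. The replicate libraries of a group had correlations of 0.996 (mRNA) and 0.991 (footprints). The standard deviation between replicates was 0.0791 in mRNA and 0.104 in footprints on the log2 scale, far below the spread of the ratios.

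The edgeR test called 3265 of the 4012 genes (81.4%), 2186 with more footprints than mRNA (54.5%) and 1079 with fewer (26.9%). At least 2-fold differences put 519 genes at the high end (12.9%) and 252 at the low end (6.28%). Over all 10287 genes tested the shares were 68.8% called, 7.99% at the high end and 16% at the low end. In 3633 genes (90.6%) both footprint values lay outside both mRNA values. The 2 ends were not equally open to all genes. The minimum of 100 counts stood for 25.2 CPM in mRNA and 55.6 CPM in footprints, so the 623 genes with mRNA below 55.6 CPM had to have more footprints than mRNA to be included, and they hold 185 of the 519 high-end genes. A gene could reach the low end only with mRNA of at least 111 CPM. Among the 1970 genes above that level the median was 0.01, with 163 genes at the high end and 252 at the low end. A further 2868 genes had 100 counts in mRNA alone and 31 in footprints alone. The lists below are bound by the same limits: their counts at the ends, medians, and highest and lowest ratios cover compared genes only. Those counts stand against 12.9% at the high end and 6.28% at the low end over the 4012 genes. TOMM5, ENSG00000285625, ATP6V0E1, TNFAIP8, TXNDC17, C22orf39 and MRPL2, given below among the largest ratios, had mRNA under 55.6 CPM. The same held for SEC11C, SELENOT, PDHB, EBP, RPA3 and KDM3A, named below with their lists. All of these genes could enter only with more footprints than mRNA. Just inside the minimum were TLK1 (637 mRNA and 100 footprint counts on average, log2 ratio -1.53) and ERG28 (119 and 100, log2 ratio 0.89), and just outside were RPS6KB2 (639 and 99.5, log2 ratio -1.54) and HARS2 (131.5 and 99.5, log2 ratio 0.74).

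**Figure D1:**
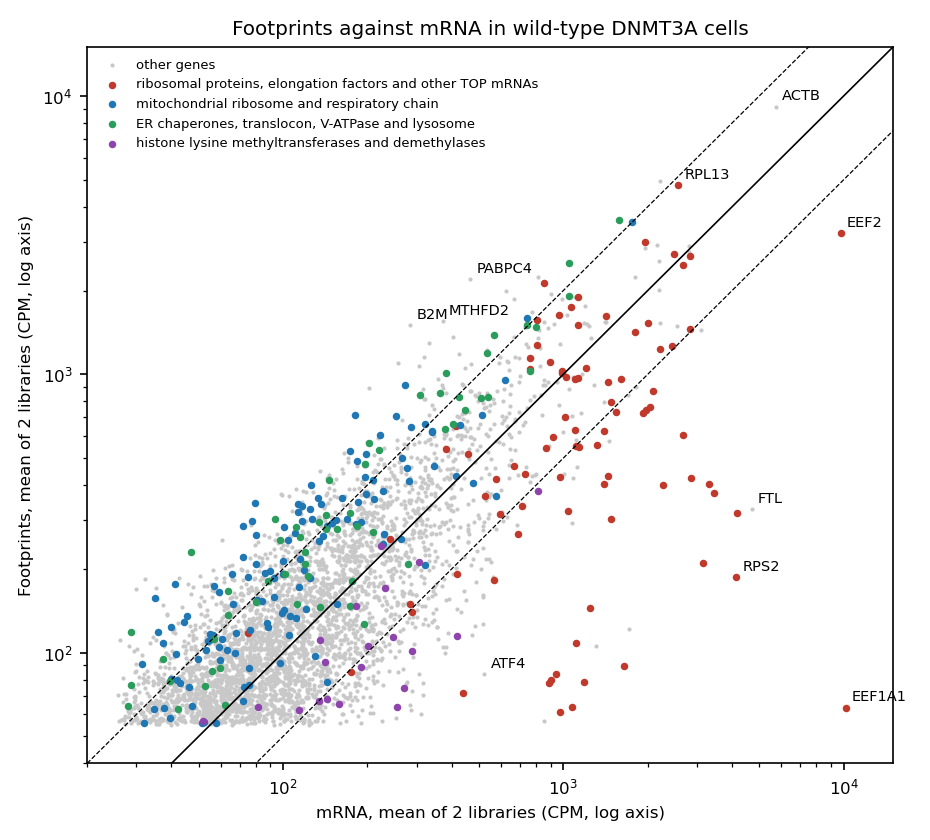
Mean footprint CPM against mean mRNA CPM (log axes, 2 libraries each) for 4012 genes, with named gene classes in colour; the solid line marks equal CPM and the dashed lines a 2-fold difference either way. Points of the ribosomal protein and TOP lists reach far below the lower line at high mRNA levels, while mitochondrial and secretory pathway genes lie mostly above the solid line.

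Among the compared genes with a symbol TOMM5, a small subunit of the translocase of the outer mitochondrial membrane, had the largest ratio. At the mRNA level of TOMM5 only genes with more footprints than mRNA could be compared, as given above. It stood at 34.8 and 25.2 CPM in mRNA and at 174 and 164 CPM in footprints, a ratio of 5.75-fold (log2 2.52, SE 0.106, edgeR adjusted p = 1.4e-30; GRCh38 chromosome 9, 37588413 to 37592597). B2M, the light chain of MHC class I, combined a high ratio with a high level. Its mRNA was at 292 and 277 CPM and its footprints at 1506 and 1492 CPM (log2 2.40, SE 0.0421, edgeR adjusted p = 1.6e-51; GRCh38 chromosome 15, 44711517 to 44718145). PABPC4, a cytoplasmic poly(A)-binding protein, had 463 and 469 CPM of mRNA against 2240 and 2162 CPM of footprints (log2 2.24, SE 0.0375). In each of these genes the groups were separated by several times the difference between replicates.

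Several other genes among the 12 largest ratios encode subunits of larger assemblies. ATP6V0E1 of the proton-pumping V-ATPase stood at 48 and 45.5 CPM in mRNA and at 230 and 228 CPM in footprints (log2 2.30). ARPC3 of the actin-nucleating Arp2/3 complex stood at 215 and 189 CPM in mRNA and at 869 and 914 CPM in footprints (log2 2.15). The proteasome subunit PSMB1 stood at 260 and 253 CPM in mRNA and at 1078 and 1111 CPM in footprints (log2 2.10). NDUFB2 of respiratory complex I had a log2 ratio of 2.14 and the mitochondrial ribosomal protein MRPL2 one of 2.15. TNFAIP8 had 2.29, the thioredoxin-like TXNDC17 2.15, C22orf39 2.15, and an unnamed gene, ENSG00000285625, 2.53. MTHFD2, the mitochondrial folate enzyme, lay just outside these 12 and was picked after its values were seen, with 369 and 372 CPM in mRNA, 1497 and 1611 CPM in footprints and a log2 ratio of 2.07. Among the 31 genes with 100 counts in footprints alone RAB5C, a GTPase of early endosomes, had 11.7 and 9.51 CPM in mRNA against 168 and 165 CPM in footprints (log2 3.98), and MRPS28 14.1 and 15.9 CPM against 122 and 123 CPM (log2 3.02). Both were picked after their values were seen.

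EEF1A1, the elongation factor that brings aminoacyl-tRNA to the ribosome, had the smallest ratio. Its mRNA stood at 10006 and 10324 CPM and its footprints at 63.9 and 62.9 CPM, a log2 ratio of -7.33 (SE 0.0583, edgeR adjusted p = 1.1e-70; GRCh38 chromosome 6, 73515750 to 73521032). Ribosomal proteins took 5 further places among the 12 smallest. RPS2 of the small subunit had 4069 and 4202 CPM of mRNA against 200 and 175 CPM of footprints (log2 -4.48). RPL7A, RPL10 and RPLP0 of the large subunit had log2 ratios of -4.20, -3.92 and -3.72, and RPL12 had 965 and 977 CPM in mRNA against 68.9 and 53.8 CPM in footprints. The nucleolar chaperone NPM1 stood at 1061 and 1081 CPM in mRNA and at 67.6 and 60.3 CPM in footprints (log2 -4.07).

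The remaining 5 of the 12 smallest ratios belonged to abundant mRNAs of other functions. HNRNPA1, a splicing regulator, had a log2 ratio of -3.92, TMSB4X, which sequesters monomeric actin, one of -3.90, and YBX1, an mRNA-binding protein, one of -3.62. The ferritin chains FTL and FTH1, which store iron, had -3.84 and -3.81. FTL had 4689 and 4711 CPM in mRNA against 320 and 334 CPM in footprints, and FTH1 1692 and 1748 CPM against 119 and 126 CPM. The 24 genes were chosen among those whose groups did not overlap.

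**Figure D2:**
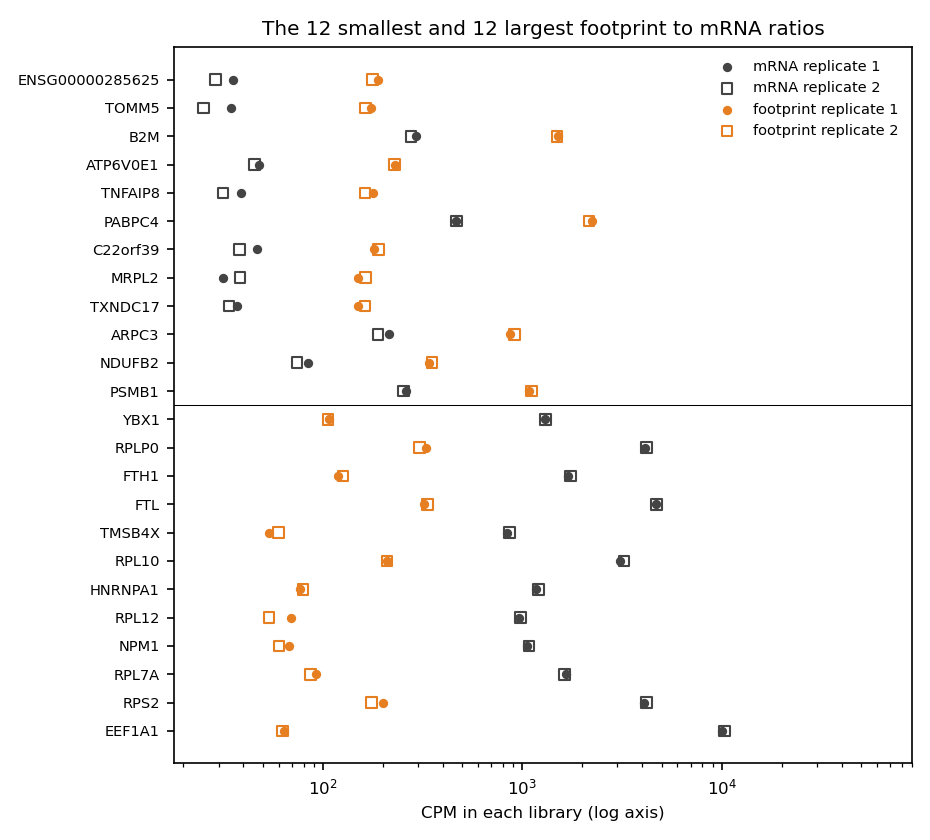
CPM in each of the 4 libraries (log axis) for the 12 smallest and 12 largest ratios of footprints to mRNA; dark symbols are mRNA, orange symbols footprints, filled circles replicate 1 and open squares replicate 2. In every row the replicates of a group lie close together and the groups do not overlap. The rows run from EEF1A1, with about 10006 CPM in mRNA replicate 1 and 63.9 CPM in footprint replicate 1, to ENSG00000285625 with 35.4 and 190 CPM.

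One property moved with the low end. Many abundant mRNAs have been copied back into the genome as processed pseudogenes, which resemble the parent transcript closely. The number of RefSeq pseudogenes that carry a gene's symbol followed by P and digits was counted for each gene, after its values were seen. EEF1A1 had 50 such copies, RPS2 55, RPL7A 80, NPM1 50, HNRNPA1 75, FTL 20 and FTH1 27. All 20 of the 20 smallest ratios belonged to genes with 5 or more, although 196 of the 4012 genes had that many. The 86 genes with 10 or more copies had a median log2 ratio of -0.83, with 36 at the low end (41.9%) and 2 at the high end (2.33%). The 110 genes with 5 to 9 copies had a median of -0.03, and the 3073 genes with none had 0.27, with 151 at the low end (4.91%). The minimum of footprint counts removes low ratios: over all genes with 100 counts in mRNA, 762 of the 5416 with no copy were at the low end (14.1%, median -0.06) and 53.2% of those with 10 or more (median -1.08). Footprints are short fragments, and how reads with several matching places were counted is not given in the sources used here. The part of the pseudogene copies in these ratios was not tested.

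**Figure D3:**
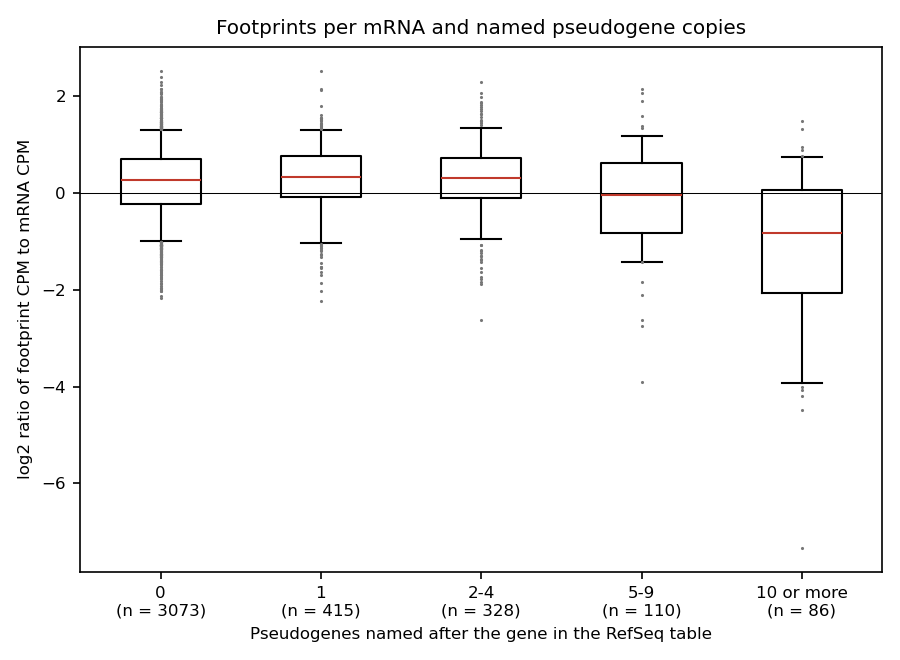
Log2 ratio of footprint to mRNA CPM by the number of RefSeq pseudogenes named after the gene; boxes span the quartiles with the median in red, whiskers the 5th to 95th percentiles and dots the genes beyond. The median stays between 0.27 and 0.34 for genes with 0 to 4 copies and lies at -0.83 for genes with 10 or more.

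Low ratios also occurred in genes without any named pseudogene. Among the 4012 genes the 6 smallest of these, chosen after their values were seen, were those of the cell cycle transcription factor MYBL2 (319 and 314 CPM in mRNA, 68.9 and 72.4 CPM in footprints, log2 -2.16), PDZD8, which tethers the endoplasmic reticulum to other organelles (-2.13), BLTP2 (-2.03), the ribosome assembly factor NOP53 (-2.03), SETD5, described with its class, and the kinase AKT1 (-1.98). AKT1 stood at 223 and 227 CPM in mRNA and at 52.7 and 60.8 CPM in footprints. The transcription factor MAZ was the most highly counted among the 10 smallest, with 1054 and 1093 CPM of mRNA against 285 and 299 CPM of footprints (log2 -1.88). The groups did not overlap in any of these genes. Lower values without a named pseudogene stood among genes that missed the minimum of footprint counts, also picked after their values were seen. H4C11, a histone H4 gene with near-identical copies, had 783 and 1037 counts in mRNA and 0 and 0 in footprints. H2BC18, a histone H2B gene, had 602 and 634 CPM in mRNA against 40.3 and 49.3 CPM in footprints (log2 -3.77), and SLC25A23, a mitochondrial carrier, 191 and 188 CPM against 21.7 and 29.2 CPM (log2 -2.87).

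The transcription start of 10 genes at the ends and of RPL38, which lies between them, is shown next, because a TOP tract is defined by its position there: a C at the first transcribed base followed by pyrimidines. Each line gives 10 bases before and 20 bases from the RefSeq start (GRCh38.p14), 5′ to 3′ on the gene's strand, with the run of pyrimidines that begins with a C at the start in capitals. Where several starts are listed the one with the longest run is given.
EEF1A1, chr6:73521013-73521042, minus strand: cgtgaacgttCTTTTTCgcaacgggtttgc
RPL12, chr9:127451387-127451416, minus strand: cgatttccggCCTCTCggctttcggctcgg
RPLP0, chr12:120201092-120201121, minus strand: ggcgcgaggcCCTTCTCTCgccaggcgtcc
NPM1, chr5:171387839-171387868, plus strand: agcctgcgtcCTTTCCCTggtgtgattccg
EEF2, chr19:3985444-3985473, minus strand: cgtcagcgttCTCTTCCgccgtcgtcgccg
RPL38, chr17:74203668-74203697, plus strand: aagtctcgttCTTTTTCgtccttttccccg
RPS25, chr11:119018324-119018353, minus strand: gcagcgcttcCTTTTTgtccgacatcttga
FTL, chr19:48965299-48965328, plus strand: acgtcccctcgcagttcggcggtcccgcgg
TMSB4X, chrX:12975100-12975129, plus strand: cccgcccgacaactcggtggtggccactgc
B2M, chr15:44711507-44711536, plus strand: gctggcgggcattcctgaagctgacagcat
ARPC3, chr12:110450318-110450347, minus strand: cgcctacctcgcccaggctgccagaccgga
The first 5 genes and RPL38 and RPS25 all begin with such a run, although EEF1A1 and RPS25 lie at opposite ends. FTL and TMSB4X at the low end and B2M and ARPC3 at the high end have no run at the listed start.

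A run of at least 5 bases at the start, a C followed by C or T, was present in 4.07% of the 35116 RefSeq starts listed for all genes. Starts were listed for 3369 of the 4012 genes, and 323 of these (9.59%) had the run at 1 start or more, as did 20.5% of low-end and 6.12% of high-end genes. In the ribosomal protein and TOP lists together 54 of 67 genes had it. Genes with the run had a median log2 ratio of 0.06 and those without it 0.28. Where no pseudogene was named after the gene the medians were 0.15 (194 of 2561 genes) and 0.28, and where 5 or more were named they were -0.88 (56 of 165 genes) and -0.05. Within the ribosomal protein and TOP lists the order was the other way round, with -0.84 for the 54 genes with the run and -1.25 for the others. The match describes the letters at a listed start and is not evidence of how an mRNA is translated.

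Cytosolic ribosomal proteins, the protein part of the ribosome itself, were spread widely, with most below equal shares. Of 47 large subunit genes 37 had 100 counts in both groups, and of these 17 were at the low end and 0 at the high end, with a median log2 ratio of -0.80 against 0.27 over all genes. Of 33 small subunit genes (with FAU and RACK1) 25 were compared, 10 at the low end and 1 at the high end, with a median of -0.89. RPL10 stood at 3090 and 3234 CPM in mRNA and at 209 and 210 CPM in footprints. RPL13A stood at 3248 and 3363 CPM in mRNA and at 397 and 411 CPM in footprints (log2 -3.03). RPS18 (-0.96) and RACK1 (-0.09), the scaffold on the small subunit, lay between the ends. RPS25 was the exception at the high end, with 848 and 860 CPM in mRNA and 2118 and 2147 CPM in footprints (log2 1.32, SE 0.0347). RPL38 had 0.97 and RPL13 0.90.

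The minimum of 100 footprint counts removed further ribosomal protein genes: 8 large and 6 small subunit genes had 100 counts in mRNA alone. Their ratios ranged from far below those compared to that of RPL26 (41.9 and 39.4 CPM in mRNA, 27.9 and 33.2 CPM in footprints, log2 -0.39). RPL7 had 2968 and 3907 counts in mRNA and 0 and 1 in footprints. RPS28 had 3163 and 4378 counts in mRNA and 1 and 1 in footprints. Of the 62 ribosomal protein genes compared 59 had 5 or more named pseudogenes, so nearly the whole class shares that property, and its part in the class's ratios was not tested. Summed over each list, large subunit genes held 59108 and 59667 CPM in the mRNA libraries and 31254 and 32503 CPM in the footprint libraries. Small subunit genes held 44138 and 44493 CPM in mRNA and 27372 and 27588 CPM in footprints.

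Elongation factors and other genes with TOP mRNAs had the lowest median of any list with 5 or more genes compared, -1.04 over 23 of 25 listed symbols, with 13 at the low end and 0 at the high end. EEF2, which moves the ribosome along the mRNA and has no named pseudogene, stood at 9770 and 9740 CPM in mRNA and at 3178 and 3252 CPM in footprints (log2 -1.60, SE 0.0313, edgeR adjusted p = 5.9e-49). PABPC1, the main cytoplasmic poly(A)-binding protein, stood at 3430 and 3474 CPM in mRNA and at 367 and 380 CPM in footprints (log2 -3.21), on the other side of its relative PABPC4. EIF3K of initiation factor 3 was highest in the list (413 and 417 CPM in mRNA, 651 and 649 CPM in footprints, log2 0.65). In the 5 members with no named pseudogene, EEF2, VIM, EIF3D, EIF3H and IMPDH2, the median was 0.08. That is the value of EIF3D, which was not called and had -0.01 without footprint replicate 1. EEF2 and VIM (-0.34) lay below 0 and EIF3H (0.18) and IMPDH2 above it. The median of all compared genes was 0.27. In IMPDH2, the enzyme that commits purine synthesis to guanine nucleotides, the log2 ratio was 0.50.

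**Figure D4:**
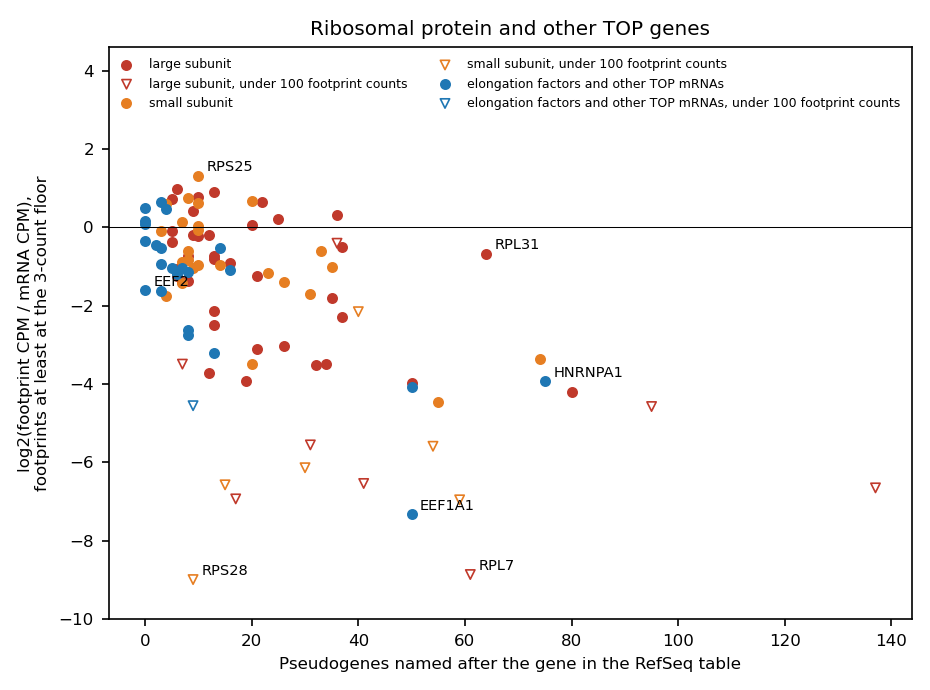
Log2 of footprint CPM over mRNA CPM against the number of RefSeq pseudogenes named after the gene, for ribosomal protein and TOP list genes with at least 20 CPM of mRNA; filled circles were compared, open triangles had under 100 counts in at least 1 group, and footprints below 3 counts are drawn at that floor. Genes with few copies lie on both sides of 0, with EEF2 (no copy) at -1.60. RPS25, with 10 copies, lies at 1.32. The lowest points are EEF1A1 and genes under the minimum such as RPL7 (61 copies) and RPS28 (9 copies).

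The list of other initiation factors also held the eIF2 kinases EIF2AK1 to EIF2AK4 and the EIF4E-binding proteins EIF4EBP1 and EIF4EBP2. Its compared genes centred near equal shares. Of 34 genes 23 were compared, 2 at the high end and 3 at the low end. The median was 0.06, the value of EIF2AK1 (-0.04 over genes with a mean of 100 CPM). A further 9 had 100 counts in mRNA alone. Only EIF1B among them lay above 0 (0.50), and EIF1AX was lowest (-4.02), followed by EIF4E2 (-1.32). EIF4A1, the helicase of the cap-binding complex, had 906 and 878 CPM in mRNA and 540 and 562 CPM in footprints (log2 -0.69). EIF1, which guards start codon choice, had -0.23. EIF6, which keeps the large subunit from joining too early, was highest (91 and 95.5 CPM in mRNA, 305 and 297 CPM in footprints, log2 1.68). EIF4G2, a relative of the scaffold EIF4G1, was lowest of those compared (678 and 691 CPM in mRNA, 296 and 278 CPM in footprints, log2 -1.26).

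Genes with known control by upstream open reading frames or by polyamines lay low. Of 24 genes 12 were compared, 6 at the low end and 0 at the high end, with a median of -0.82. Over the 10 with no named pseudogene the median was -0.53. ATF4, the transcription factor of the integrated stress response whose upstream frames divert ribosomes in unstressed cells, stood at 525 and 519 CPM in mRNA and at 80.7 and 87 CPM in footprints (log2 -2.63, SE 0.0705, edgeR adjusted p = 3.8e-41; GRCh38 chromosome 22, 39520559 to 39522686; 4 named pseudogenes). SLC35A4 had 207 and 204 CPM in mRNA against 67 and 71.9 CPM in footprints (log2 -1.56). PPP1R15A and PPP1R15B, the regulatory subunits that direct dephosphorylation of eIF2, had -1.25 and -1.13, each with no named pseudogene. OAZ1, the antizyme made by a polyamine-driven frameshift, had 1113 and 1168 CPM in mRNA and 537 and 590 CPM in footprints (log2 -1.01). EPRS1, a tRNA synthetase, was highest with 0.42. Of the 12 that were not compared, 7 had 100 counts in mRNA alone. Their log2 ratios ran from -2.05 in AMD1 to 0.01 in KLF9 and 0.22 in CDKN1B. ATF5, a relative of ATF4 with the same kind of control, had 21.6 CPM in mRNA and 4.74 CPM in footprints on average.

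Among iron handling genes the ferritin chains given above lay at the low end. TFRC, the transferrin receptor that brings iron into the cell, lay at the high end, with 914 and 898 CPM in mRNA and 2030 and 1872 CPM in footprints (log2 1.10, SE 0.0364; no named pseudogene). The iron exporter SLC40A1 had -0.14. Of 12 genes 9 were compared, with a median of -0.01 that changed sign with the scaling (0.03 with TMM factors). Only the ferritins among these 9 had 5 or more named pseudogenes, and the part of these copies in their ratios was not tested.

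The mitochondrial respiratory chain lay high. Of 37 nuclear-encoded complex I genes 30 were compared, 17 at the high end and 0 at the low end, with a median of 1.14. The core subunit NDUFS7 stood at 242 and 265 CPM in mRNA and at 694 and 723 CPM in footprints (log2 1.48, SE 0.0495). NDUFV1, which binds NADH, stood at 346 and 346 CPM in mRNA and at 469 and 465 CPM in footprints (log2 0.43). NDUFB9 had 0.92, and NDUFV2 was lowest of those compared with -0.41. A further 3 had 100 counts in mRNA alone, with log2 ratios from -1.25 in NDUFC2 to 0.24 in NDUFB3. For complexes III and IV and ATP synthase 36 of 39 genes were compared, 14 at the high end and 0 at the low end, with a median of 0.84. ATP5F1B, the catalytic beta subunit of ATP synthase, stood at 1785 and 1721 CPM in mRNA and at 3480 and 3549 CPM in footprints (log2 1.01). ATP5MC3 of the membrane rotor had 1.10, ATP5F1A 0.62 and ATP5PF 1.98, while the Rieske protein UQCRFS1 was lowest of those compared with -0.87. ATP5MG (-0.61) and ATP5MK (-1.06) had 100 counts in mRNA alone. With genes chosen by a mean of 100 CPM over the 4 libraries in place of the minimum in both groups, the complex I median was 1.18 over 25 genes and that of the second list 0.86 over 34.

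Mitochondrial ribosomal proteins, which are translated in the cytosol and imported, lay high too. Of 78 genes 61 were compared, 24 at the high end and 0 at the low end, with a median of 0.92. The members with the highest mRNA counts were near equal shares: MRPL37 stood at 405 and 424 CPM in mRNA and at 425 and 437 CPM in footprints (log2 0.05), MRPL4 had 0.21 and DAP3 0.12. MRPL11 was lowest of those compared with -0.09. The list's median was 0.93 over the 30 genes with a mean of 100 CPM. In the citric acid cycle 20 of 23 genes were compared, 5 at the high end and 0 at the low end, with a median of 0.63. Malate dehydrogenase MDH2 had 0.66, fumarase FH 1.01, the pyruvate dehydrogenase subunit PDHB 1.49 and citrate synthase CS -0.04. Of 13 mitochondrially encoded genes none reached 100 counts in both groups.

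Genes of the secretory pathway formed a second high class. Of 38 endoplasmic reticulum chaperones and translocon genes 36 were compared, 16 at the high end and 0 at the low end, with a median of 0.93. HSP90B1, the chaperone of the endoplasmic reticulum lumen, stood at 1581 and 1580 CPM in mRNA and at 3615 and 3563 CPM in footprints (log2 1.18, SE 0.0316). Calreticulin (CALR) stood at 1061 and 1031 CPM in mRNA and at 2499 and 2545 CPM in footprints (log2 1.27), and calnexin (CANX) had 0.86. The signal peptidase subunit SEC11C was highest with 2.05, and the disulphide isomerase PDIA3 lowest with -0.43. Of 28 V-ATPase and lysosomal genes 22 were compared, 11 at the high end and 0 at the low end, with a median of 0.98. Prosaposin (PSAP), the precursor of lysosomal lipid-binding proteins, stood at 577 and 558 CPM in mRNA and at 1388 and 1391 CPM in footprints (log2 1.29). ATP6V0B had 1.46, the tetraspanin CD63 0.75, and ATP6V1F -0.62.

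Amino acid transporters of the plasma membrane lay above equal shares throughout. Of 17 genes 12 were compared, 2 at the high end and 0 at the low end, with a median of 0.80. All 12 were called higher in footprints, against 54.5% of the 4012 genes. The call of SLC7A5 was lost when any 1 of the 4 libraries was left out. The glutamine carrier SLC1A5 stood at 972 and 1009 CPM in mRNA and at 1863 and 1853 CPM in footprints (log2 0.91). The heavy chain SLC3A2 had 0.80, its partner SLC7A5, which carries leucine, 0.09, and SLC38A2, an inducible carrier of neutral amino acids, 1.32. The lactate carrier SLC16A1 had 299 and 312 CPM in mRNA against 1112 and 1023 CPM in footprints (log2 1.80), the highest value in the glycolysis list.

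Selenoproteins, whose UGA codons must be read as selenocysteine, had the highest median of the lists with 5 or more genes compared, 1.19 over 12 of 18 genes, with 7 at the high end and 0 at the low end. The median was 0.80 over the 7 genes with a mean of 100 CPM. The lipid peroxidase GPX4 stood at 371 and 375 CPM in mRNA and at 836 and 949 CPM in footprints (log2 1.26). Thioredoxin reductase TXNRD1 had 0.34, SELENOT 1.83 and SEPHS2 -0.20. Of 15 peroxiredoxins, thioredoxins and related antioxidant genes 12 were compared, 5 at the high end and 0 at the low end, with a median of 0.91. Superoxide dismutase SOD1 stood at 338 and 300 CPM in mRNA and at 1140 and 1161 CPM in footprints (log2 1.86), PRDX1 had 1.01, PRDX6 0.90, PRDX2 0.73 and catalase (CAT) 0.53.

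Protein-folding and degradation complexes of the cytosol lay moderately high. Of 32 proteasome genes 30 were compared, 9 at the high end and 0 at the low end, with a median of 0.68. PSMC1 reached the minimum in mRNA alone, so these values leave it out. It lay far lower, with 29 and 33.2 CPM in mRNA against 1.24 and 0.503 CPM in footprints (log2 -5.16). PSMC1 had 13 named pseudogenes. PSMB2 stood at 411 and 439 CPM in mRNA and at 1200 and 1167 CPM in footprints (log2 1.47), PSMB4 had 0.69 and PSMD3 of the regulatory lid -0.15. All 8 subunits of the CCT chaperonin, which folds actin and tubulin, were called higher in footprints, against 54.5% of the 4012 genes. Their median was 0.63, with a range from 0.11 in CCT6A to 1.12 in CCT5. The call of CCT6A was lost without either mRNA library or footprint replicate 1. Heat shock chaperones had a median near that of all genes, with 22 of 28 compared, 0 at the high end, 1 at the low end and a median of 0.22. HSP90AB1 had 2493 and 2591 CPM in mRNA against 1520 and 1455 CPM in footprints (log2 -0.78), HSP90AA1 had -0.61 and HSPA8 -1.34. HSPA8 had 20 named pseudogenes and both HSP90 genes none.

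**Figure D5:**
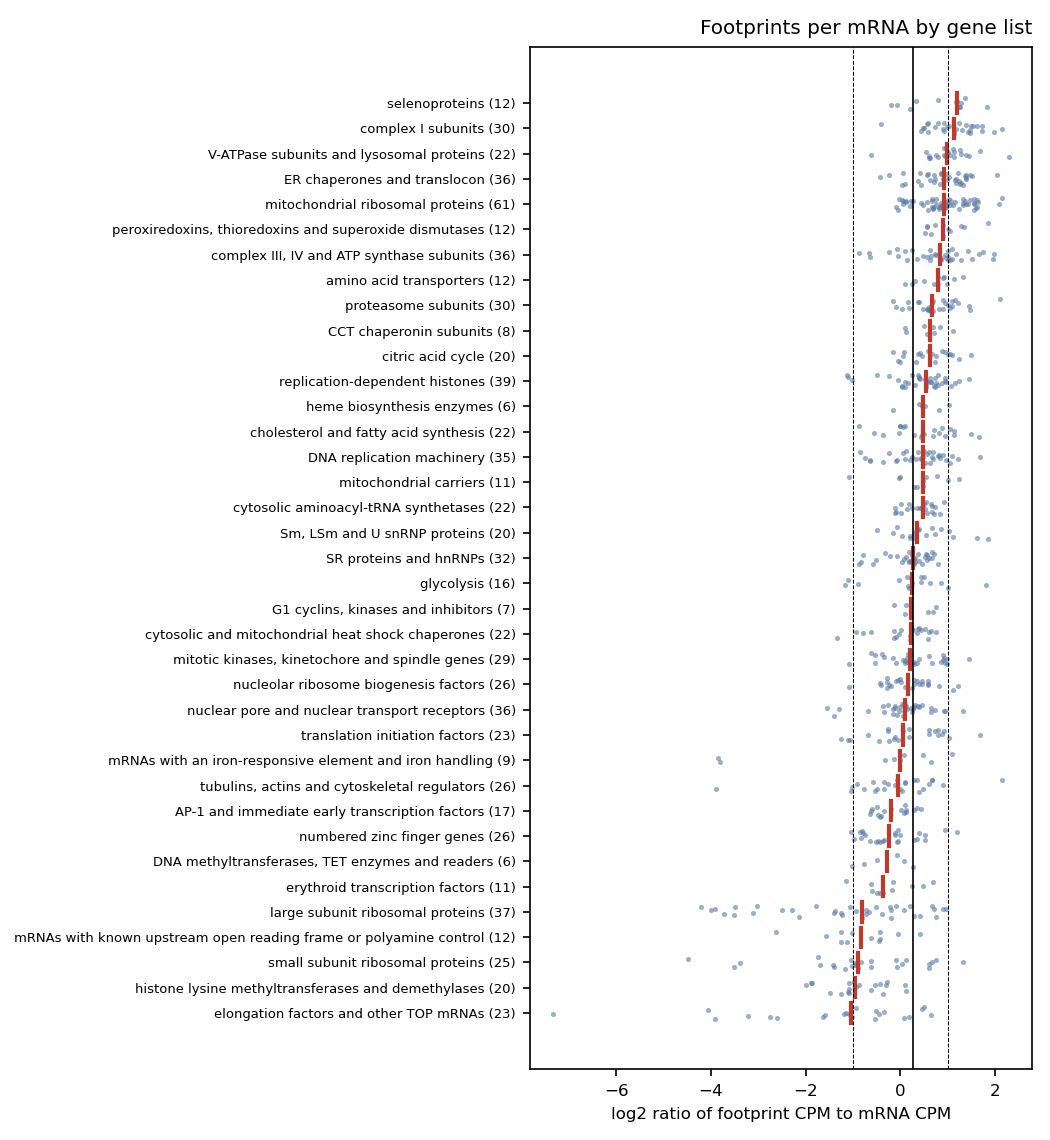
Log2 ratio of footprint to mRNA CPM for each compared gene (points) of each list with 5 or more such genes, ordered by the list's median (red bars); the number in parentheses is the number of genes compared, the solid line marks the median of all 4012 genes (0.27) and the dashed lines -1 and 1. Selenoproteins, complex I and the V-ATPase and lysosomal list lie at the top, and histone methylation enzymes and TOP mRNAs at the bottom.

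Metabolic enzymes of the cytosol scattered around the overall median. Of 19 glycolysis genes 16 were compared, 1 at the high end and 2 at the low end, with a median of 0.24. GAPDH had 3093 and 3081 CPM in mRNA against 1475 and 1406 CPM in footprints (log2 -1.10; 65 named pseudogenes), and TPI1 had -1.17. ALDOA and ENO1 had 0.23 and 0.43. Of 29 cholesterol and fatty acid synthesis genes 22 were compared, 5 at the high end and 0 at the low end, with a median of 0.48. Fatty acid synthase (FASN) stood at 1961 and 2020 CPM in mRNA and at 1486 and 1587 CPM in footprints (log2 -0.37), the desaturase SCD had 0.46, the sterol isomerase EBP 1.67 and the transcription factor SREBF2 -0.87. The list of cytosolic aminoacyl-tRNA synthetases spanned a narrow range: 22 of 23 genes were compared and none reached either end, with a median of 0.47. Ratios ran from -0.12 in KARS1 to 0.93 in AIMP2. The latter is a scaffold of the synthetase complex and not itself a synthetase. Of 12 heme synthesis genes 6 were compared, 1 at the high end, with a median of 0.49. UROD, which decarboxylates uroporphyrinogen, stood at 673 and 665 CPM in mRNA and at 1345 and 1371 CPM in footprints (log2 1.02).

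Enzymes that write and erase histone lysine methylation lay low. Of 39 genes 20 were compared and 19 had 100 counts in mRNA alone. Of the 20, 9 were at the low end and 0 at the high end, with a median of -0.96. Of these 20 genes 18 were called lower in footprints, against 26.9% of the 4012 genes. KMT2D, a very large methyltransferase of enhancers, stood at 803 and 815 CPM in mRNA and at 376 and 386 CPM in footprints (log2 -1.09, SE 0.0468). KMT2C, its relative, stood at 433 and 405 CPM in mRNA and at 127 and 103 CPM in footprints (log2 -1.88). SETD5 was lowest, with 260 and 251 CPM in mRNA and 63.9 CPM in both footprint libraries, and KDM5C had -0.53. The demethylase KDM3A was highest with 0.12. Over the 18 with no named pseudogene the median was also -0.96. Among DNA methyltransferases, TET enzymes and readers 6 of 14 were compared, with a median of -0.29. The maintenance enzyme DNMT1 stood at 322 and 315 CPM in mRNA and at 187 and 186 CPM in footprints (log2 -0.77), and DNMT3B had -0.50.

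The transcription factor lists had medians below that of all genes. Of 28 AP-1 and immediate early genes 17 were compared and none reached either end, with a median of -0.19. MYC stood at 1262 and 1247 CPM in mRNA and at 1349 and 1348 CPM in footprints (log2 0.10), JUND had -0.59 and EGR1 -0.63. Of 15 erythroid and related transcription factors 11 were compared, 1 at the low end and 0 at the high end, with a median of -0.37. GATA1, the master regulator of erythroid cells, stood at 434 and 431 CPM in mRNA and at 594 and 614 CPM in footprints (log2 0.48), while GATA2 had 414 and 441 CPM against 261 and 303 CPM (log2 -0.59). MYB had -0.49, and ZFPM1, the cofactor of GATA1, was lowest with -1.15. Of 476 numbered zinc finger genes 26 were compared, 1 at each end, with a median of -0.23, and 70 had 100 counts in mRNA alone.

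Among globins HBG2, a fetal gamma chain, had 518 and 497 CPM in mRNA against 203 and 197 CPM in footprints (log2 -1.34), while the embryonic zeta chain HBZ had 376 and 393 CPM against 444 and 411 CPM (log2 0.15). HBG1, nearly identical to HBG2, had -0.08, and reads of the pair cannot be assigned with certainty. Replication-dependent histones, whose mRNAs end in a stem-loop and lack a poly(A) tail, summed to 29880 and 30062 CPM in the mRNA libraries, whose protocol names oligo(dT), and to 40009 and 41312 CPM in footprints. Of 59 genes 39 were compared, 4 at the high end and 3 at the low end, with a median of 0.54. A further 3 listed genes reached the minimum in mRNA alone, and all lay far lower: H4C11, H4C12 (log2 -7.61) and H2BC18 (-3.77). The list also leaves out H3C13, a compared histone gene at the low end. H3C13 had 474 and 495 CPM in mRNA against 120 and 131 CPM in footprints (log2 -1.95). The counts and median of the list therefore leave out low values. H3C2 stood at 2183 and 2251 CPM in mRNA and at 4870 and 4995 CPM in footprints (log2 1.15), the linker histone H1-2 had -0.04, H1-4 had 0.04 and H4C3 1.46. Histone genes lie in clusters of near-identical copies, so single values are uncertain.

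Cell division genes were close to the overall median. Of 36 mitotic genes 29 were compared, 1 at each end, with a median of 0.21. The survivin gene BIRC5 stood at 157 and 151 CPM in mRNA and at 411 and 429 CPM in footprints (log2 1.45), PLK1 had 0.11, TOP2A -0.38 and the spindle protein ASPM -1.08. Of 45 DNA replication genes 35 were compared, 4 at the high end and 0 at the low end, with a median of 0.48. The share at the high end was near the 12.9% of all compared genes. The helicase subunit MCM7 had 0.69, CDC45 0.52, the licensing factor CDT1 -0.63 and RPA3, the smallest subunit of the single-strand binding protein, 1.69. Of 35 SR proteins and hnRNPs other than HNRNPA1 32 were compared and none of these reached either end, with a median of 0.27. A further 2 listed genes reached the minimum in mRNA alone and are not covered by that statement. HNRNPA1 itself had -3.92. HNRNPA3, picked by value, missed the minimum in footprints, with 152 and 158 CPM in mRNA against 1.86 and 2.51 CPM in footprints (log2 -6.10). Of 39 nuclear pore and transport genes 36 were compared, 1 at the high end and 3 at the low end, with a median of 0.09, and XPOT, which exports tRNA, was lowest (456 and 443 CPM in mRNA, 155 and 154 CPM in footprints, log2 -1.54). Among cytoskeletal genes 26 of 32 were compared, with a median of -0.04 that changed sign with the scaling (0.01 with RLE factors). Beta actin (ACTB) stood at 5708 and 5775 CPM in mRNA and at 8922 and 9405 CPM in footprints (log2 0.68) with 14 named pseudogenes, ACTG1 had -0.11 with 21 and TUBB -0.53 with 11.

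Genomic span moved with the ratio as well, and so did the highest G and C share at the start. Genes were ordered by the length of the RefSeq gene, introns included, and cut into quintiles. The shortest quintile (0.388 to 8.67 kb) had a median log2 ratio of 0.51, with 20% of genes at the high end and 6.38% at the low end. The longest quintile, over 68.6 kb, had a median of -0.09, with 4.38% at the high end and 10.8% at the low end. By the G and C share of the first 50 transcribed bases, the 4 lower quintiles had medians between 0.30 and 0.36, and the highest quintile (74.7% to 92%) stood apart with -0.01. Between 13.4% and 17.5% of genes in the 4 lower quintiles were at the high end, and 5.64% in the highest. Whether reads were counted over exons or over coding sequence is not given in the sources used here, so the share of a transcript that can carry footprints was not taken into account, and the part of these properties in the class medians was not tested.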

How the data were processed

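Counts were taken from 2 wild-type mRNA and 2 wild-type footprint libraries; the 4 mutant libraries were not used. The authors deposited raw read counts for each Ensembl gene as whole numbers. The submitters' processing notes list featureCounts, STAR, Bowtie2, Trimmomatic and cutadapt, with GRCh38 (also written hg38) as the build. Their order and versions, the annotation, the strand setting, the counted feature and the handling of multiple matches were not given in the sources used here. Per the labels' protocols, RNA was copied with oligo(dT), and footprints were made with RNase I, size-selected and depleted of ribosomal RNA. Symbols came from a reference table (20407 of 20453 IDs matched, 19827 of them to a name), and coordinates and starts from RefSeq on GRCh38.p14.

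The test was edgeR 4.0.16 under R 4.3.3 (glmQLFit with legacy set to FALSE, glmQLFTest) on the 4 libraries with library totals as the scale. Benjamini-Hochberg adjustment ran over the 10287 genes kept by filterByExpr. The standard error is the log2 ratio divided by the square root of F. The common biological coefficient of variation was 1.55%. On simulated counts with a coefficient of variation of 1.55%, 100% of 2-fold changes were recovered (10177 genes), with 4.31% false calls. Each library was treated as 1 sample, although the spread within a group does not show whether replicates were separate cultures. Libraries of a group differed by slightly more than sampling noise over the 4012 genes (chi-square per degree of freedom 1.13 in mRNA, 1.16 in footprints). Over all genes with a mean of 10 counts the values were 1.08 in mRNA and 1.01 in footprints, the latter within sampling noise (chi-square test over 9472 genes, p = 0.294).

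The genes and lists were chosen with earlier results of these data known. Named genes were DNMT3A, the 12 largest and 12 smallest ratios among genes at the ends whose groups did not overlap, and, for the lists described, genes from among the 3 with the highest mRNA count and the highest and lowest ratio; other genes are list members given as context or said to be picked by value. Lists were described by counts and medians, with no set test. Alternatives were other scalings, DESeq2 1.42.0, other minimums, a test against 2-fold, an assumed coefficient of variation of 10%, a replicate block and each library left out. Some genes of the lists are not reported here by name.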

Additional observations from a re-analysis of the deposited data

How the results depend on the processing

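The counts at both ends depended most on which genes were compared and on the test. A minimum of 50 counts put 514 genes at the low end and one of 200 counts 103, with 1843 genes called. A mean of 100 CPM over the 4 libraries, chosen after seeing the data, gave 2097 called and 332 at the high end. Without genes that have a named pseudogene, also chosen after seeing the data, 151 were at the low end. Testing against a 2-fold difference (edgeR's glmTreat) called 490 genes, 330 higher and 160 lower. All of these settings but the last compare fewer or more genes than the 4012. Under TMM factors, RLE factors, library totals without ribosomal protein, histone and mitochondrially encoded genes, DESeq2, no filter on low counts and an assumed coefficient of variation of 10%, calls ranged from 2593 to 3301, the high end from 450 to 577 and the low end from 228 to 268. With 1 library left out, where the lone library was assumed to vary like the others, calls ranged from 3006 to 3185, the high end from 515 to 530 and the low end from 246 to 250. Replicate numbers were shared between the assays but nothing says that they pair the libraries (correlation of deviations 0.0739), and with the replicate block 3308 genes were called, 515 at the high end and 252 at the low end. Among calls 67% were higher in footprints, against 60.3% to 73.7% over the settings.

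The TOP list median, -1.04 over the genes compared, was 0.08 over the 5 genes without a named pseudogene, the value of EIF3D. The other medians and ratios that changed sign were near 0. The initiation factor median was -0.04 with 50 counts and with a mean of 100 CPM. The iron handling median was 0.03 with TMM factors, 0.04 with RLE factors and with DESeq2, 0.07 with 50 counts, 0.48 without genes that have a named pseudogene, and -0.07 to 0.05 with 1 library left out. The cytoskeletal median was 0.01 with RLE factors and with DESeq2 and 0.07 without genes that have a named pseudogene. H1-2 had 0.01 with RLE factors and with DESeq2, and CS 0.00 and 0.01. H1-4 had -0.02 with totals that leave out ribosomal protein, histone and mitochondrially encoded genes and -0.04 to 0.10 with 1 library left out, MRPL11 -0.22 to 0.05, and EIF3D -0.01 to 0.18. The cause of these changes was not tested. Footprint depth, 1611724 and 1988513 counts, set which genes could be compared.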
